A study of Danio rerio with 40 samples.

Results

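Whole eyes of adult zebrafish of the wh5 line were compared with whole eyes of adult wild-type (WT) zebrafish. The wh5 line carries a knockout of cyp1b1, and the WT fish carry no allele or treatment that the labels name. The comparison covers every gene that the authors list for the eye, 19429 of the 20454 genes listed for either organ, and rests on 20 of the 40 samples of the series. These are 10 wh5 eye samples, 5 female and 5 male, and 10 WT eye samples, 5 female and 5 male, and polyadenylated RNA was sequenced from each. The labels do not give the exact age of the fish, whether wh5 and WT fish came from the same crosses, or how many founders the wh5 line had. In RNA of whole eyes, fewer cells of a type and less RNA per cell cannot be told apart.

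Cyp1b1 is a cytochrome P450 that oxidises oestrogens, retinoids, polyunsaturated fatty acids and aromatic pollutants, and it is induced through the aryl hydrocarbon receptor. In vertebrate eyes it is known from the ciliary margin and from the neural crest-derived tissue around the lens and cornea. Loss of the human gene causes primary congenital glaucoma, a disease of the drainage tissue at the front of the eye. A whole eye holds neural retina, retinal pigment epithelium, lens, the surface epithelium of the cornea, vessels, pigment cells and resident leukocytes, and each contributes to the values below.

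Each gene has a single log2 fold change (wh5 over WT) with its standard error (SE), a base mean, which is the mean of normalised counts over the compared samples, and an adjusted p, all from the authors' deposited table. No sample has a value of its own there, so the depth of the libraries is unknown, and replicates and sexes cannot be set side by side. A gene is called here where that adjusted p is below 0.05, and a value printed with an SE is a log2 fold change. All samples carry the other organ's name in the source field, and the organ was taken from the titles. The levels follow the titles, since the rhodopsin gene rho was at a base mean of 632710.0 for eye and 1359 for brain by the authors' deposited tables. Other defining genes of the eye were also abundant in the authors' deposited table for eye. Base means were 212980.0 for krt5 of the surface epithelium, 38521 for the ultraviolet cone opsin gene opn1sw1, 28241 for rpe65a of the visual cycle, 13928 for the red cone opsin gene opn1lw1 and 13296 for the lens gene cryaa, none of them called.

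In all, 325 of the 19429 genes (1.67%) were called, of which 189 (0.973%) were higher and 136 (0.700%) lower in wh5 eyes. The genes that rose and the genes that fell differed in size and level. Those that rose had a median log2 fold change of 0.86 at a median base mean of 189, and those that fell had a median of -0.44 at a median base mean of 599, per the authors' deposited table. Among genes with a base mean from 10 to 50, 37 rose and 7 fell, while among those from 1000 to 5000, 19 rose and 42 fell. At like levels the sizes were closer. Median log2 fold changes of rises and falls were 1.76 and -1.75 from 10 to 50 and 0.97 and -0.99 from 50 to 100. From 1000 to 5000 they were 0.52 and -0.34. The median SE was 0.34 from 10 to 50 and 0.10 from 1000 to 5000. A change of at least 2-fold was reached by 80 of the genes that rose and by 15 of those that fell. Genes that still bear a clone name were called in 83 of 3623 cases (2.29%), 62 higher and 21 lower, against 242 of 15806 (1.53%) for genes with another name. Over all genes the deposited test statistic had a robust SD of 1.317, where a standard normal has 1, and with an empirical null of that width in place of the standard one 38 genes (0.196%) remained called, 24 higher and 14 lower.

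**Figure D1:**
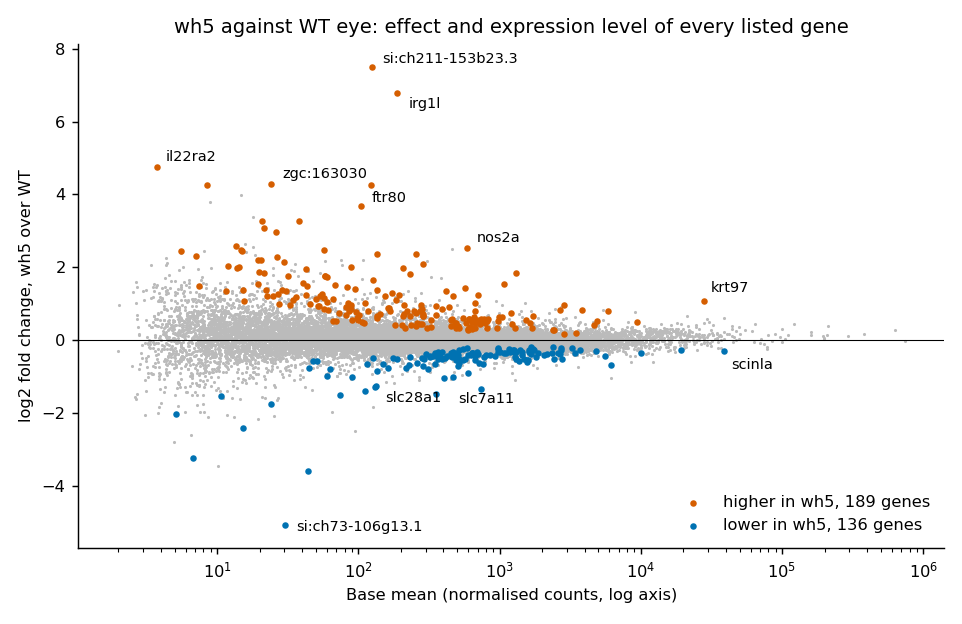
Base mean (horizontal, log axis) and log2 fold change of wh5 over WT (vertical) for all 19429 genes of the eye comparison. Orange points are the 189 genes called higher and blue points the 136 called lower in wh5, and the blue points lie nearer to 0 and further to the right than the orange ones (median base mean 599 against 189).

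The largest increases lay at irg1l and its neighbours. The product of irg1l belongs to the family of the itaconate-forming enzyme of activated mammalian macrophages. The gene rose by 6.77 (SE 0.93, adjusted p = 1.35e-09) on the log2 scale, a fold of 109 (95% interval 31.1 to 385), at a base mean of 189 by the authors' deposited table. In gene order it opens a run of 4 neighbours on chromosome 14 that all rose. The other members of the run, which carry clone names only, had log2 fold changes of 7.50 (SE 1.08) for si:ch211-153b23.3, 4.26 (SE 0.69) for si:ch211-153b23.4 and 2.36 (SE 0.51) for si:ch211-153b23.5 according to the authors' deposited table. The gene acod1 of the same enzyme family was at 0.15 (SE 0.21, adjusted p = 0.805), il1b, a cytokine of activated macrophages, at 0.59 (SE 0.44, adjusted p = 0.579), and the prostaglandin synthase gene ptgs2a at 0.13 (SE 0.21, adjusted p = 0.839), none of them called per the authors' deposited table. The sources used here do not give how reads shared by neighbouring copies were counted.

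Some immune genes outside the interferon response were called. Of 128 listed chemokine, interleukin and tumour necrosis factor family genes 3 rose (2.34%, against 0.973% of all genes) and none fell. The gene il22ra2, which in mammals encodes a soluble receptor that traps interleukin 22, rose by 4.76 (SE 0.87, adjusted p = 3.49e-05) with a base mean of only 3.75, by the authors' deposited table. The lymphoid chemokine gene ccl19a.2 rose by 2.98 (SE 0.61, adjusted p = 0.000438) and the interleukin 17 receptor relative il17rel by 1.08 (SE 0.30, adjusted p = 0.0252) according to the authors' deposited table. Single called genes that act in myeloid cells were the transcription factor gene spic at 2.04 (SE 0.55, adjusted p = 0.0207) and the Toll-like receptor relative cd180 at 1.39 (SE 0.33, adjusted p = 0.00633) per the authors' deposited table. The oxidase gene nox1, known in mammals from epithelium and smooth muscle, was at 1.26 (SE 0.36, adjusted p = 0.0365), and cybb, the phagocyte oxidase gene, was not called at 0.47 (SE 0.50, adjusted p = 0.734), from the authors' deposited table. In the group of 56 macrophage activation genes 3 rose (5.36%), irg1l, the granulin gene grn2 and the nitric oxide synthase gene nos2a, and the group's median was 0.17.

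Markers of leukocytes stood beside these values as follows. Of 59 microglia and leukocyte markers 40 had a log2 fold change above 0, and the median was 0.15 by the authors' deposited table. Of the same markers 2, grn2 and mpeg1.2, were called, both higher (3.39%, against 0.973% of all genes). The macrophage gene mpeg1.1, a near copy of mpeg1.2, was at 0.037 (SE 0.26, adjusted p = 0.972) and not called (the authors' deposited table). Over all 19429 genes the median was 0.0086 and 10092 genes lay above 0. MHC class II and antibody genes had a median of 0.31 over 11 members with none called. Complement and acute phase genes had a median of -0.047 over 28 members with none called, by the authors' deposited table. The part of leukocyte number in the increase of immune genes was not tested.

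TRIM proteins are ubiquitin ligases, several of which act in antiviral defence, and fish have a large expansion of them called finTRIM. Of 123 listed TRIM genes 5 rose (4.07%, against 0.973% of all genes) and none fell. The called genes were ftr80 at 3.69 (SE 1.03), ftr58 at 0.95 (SE 0.28), btr09 at 0.74 (SE 0.20), ftr56 at 0.50 (SE 0.13) and ftr97 at 0.47 (SE 0.12) on the log2 scale of the authors' deposited table, with adjusted p between 0.013 and 0.0461. The finTRIM branch had 43 of 50 members above 0 with a median of 0.42, the bloodthirsty branch 15 of 17 with a median of 0.46, and the remaining trim genes 31 of 56 with a median of 0.027. The finTRIM genes are close copies of each other, and shared reads make their separate values uncertain. Proteasome subunit genes, whose products degrade ubiquitin-tagged proteins, had 49 of 54 members above 0 and a median of 0.14, with 1 called (1.85%). That gene, psme2, encodes part of the interferon-inducible proteasome activator and rose by 0.53 (SE 0.15, adjusted p = 0.0345) according to the authors' deposited table. Single called genes outside that list were the peptide-trimming gene erap1b at 0.75 (SE 0.17, adjusted p = 0.00205) and the lysosomal thiol reductase gene ifi30 at 0.64 (SE 0.17, adjusted p = 0.0172) per the authors' deposited table.

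Genes of the surface epithelium were higher in wh5 eyes in 3 called cases of 44 (6.82%, against 0.973% of all genes). The keratin gene krt97 rose by 1.08 (SE 0.28, adjusted p = 0.0139) with a base mean of 27835, the highest level of any gene that rose, and the epithelial transcription factor gene elf3 by 1.36 (SE 0.39, adjusted p = 0.0331) by the authors' deposited table. The third was icn2, which encodes an epithelial calcium-binding protein of the S100 family, at 0.79 (SE 0.21, adjusted p = 0.0192), as the authors' deposited table lists it. Of 23 genes of the keratin group 22 lay above 0 with a median of 0.42, although krt97 alone was called. The group takes in krtcap2 (0.20), which does not encode a keratin. The most abundant keratin, krt5, was at 0.38 (SE 0.25, adjusted p = 0.511), krt91 at 0.44 (SE 0.22, adjusted p = 0.335) and krt4 at 0.45 (SE 0.20, adjusted p = 0.234) according to the authors' deposited table. Of 12 mucin and secretory genes 1 rose (8.33%), the membrane mucin gene muc13a, by 1.23 (SE 0.32, adjusted p = 0.0137), from the authors' deposited table. Further called genes of epithelia were the serpin gene serpinb1l4 at 1.77 (SE 0.52, adjusted p = 0.0458) and the urokinase gene plaub at 0.44 (SE 0.12, adjusted p = 0.0147) per the authors' deposited table. The adhesion gene jupb, for plakoglobin, fell (-0.51, SE 0.13, adjusted p = 0.0137), as did scinla (-0.31, SE 0.088, adjusted p = 0.0381), an actin-severing gene that is abundant in zebrafish cornea and had a base mean of 39093 (the authors' deposited table). The keratin and cornea groups share 16 genes, so they are not separate evidence, and no called gene of either held with the empirical null (adjusted p = 0.433 for krt97, 0.609 for elf3 and 0.494 for icn2).

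**Figure D2:**
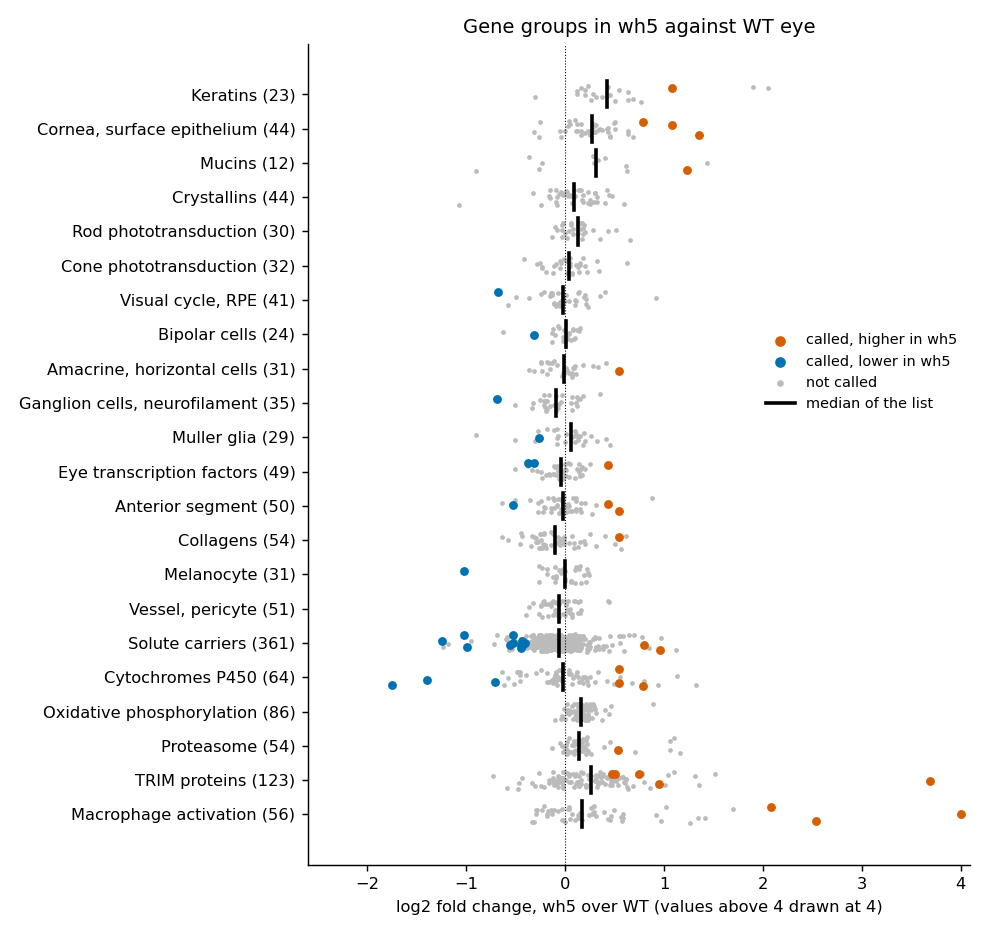
Log2 fold change of wh5 over WT (horizontal) for the members of 22 gene groups, with the number of listed members in brackets. Orange and blue points are called genes, grey points are not called, and the black bar is the group's median, which is furthest to the right for keratins (0.42).

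No listed gene of the lens was called. The crystallin group had 30 of 44 members above 0 and a median of 0.094. Crystallins are the soluble proteins that fill the lens fibres, but cryl1, crybg1a and crybg1b of the group bear the name without being among them. The most abundant, crygs1, was at 0.16 (SE 0.39, adjusted p = 0.901) and crybb2 at 0.23 (SE 0.60, adjusted p = 0.905) by the authors' deposited table. Membrane and filament genes of lens fibres had a median of 0.018 over 28 members, with the lens aquaporin gene mipa at -0.084 (SE 0.60) and the beaded filament gene bfsp2 at -0.061 (SE 0.57) according to the authors' deposited table. The lens values were the least precise among the eye tissues, with a median SE of 0.55 for crystallins against 0.14 over all genes, so larger changes can go uncalled there.

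No listed gene of phototransduction was called. Rods sense dim light and cones daylight and colour, and each uses its own opsins, transducins and phosphodiesterases. The 30 rod genes and 32 cone genes had medians of 0.13 and 0.044. By the authors' deposited table rho was at 0.28 (SE 0.12, adjusted p = 0.224), a fold of 1.22 (95% interval 1.03 to 1.43), and the rod transducin gene gnat1 at 0.16 (SE 0.087, adjusted p = 0.412). Cone arrestin arr3a was at 0.15 (SE 0.11, adjusted p = 0.53), the cone phosphodiesterase gene pde6c at -0.25 (SE 0.10, adjusted p = 0.172), the ultraviolet opsin gene opn1sw1 at 0.22 (SE 0.10, adjusted p = 0.251) and the red opsin gene opn1lw2 at 0.18 (SE 0.13, adjusted p = 0.549), in the same source, the authors' deposited table. Among called genes that act in photoreceptors outside those groups, eys, an extracellular matrix protein of photoreceptors, rose by 1.49 (SE 0.43, adjusted p = 0.0351) with a base mean of 7.48, as the authors' deposited table lists it. The rise of eys was not confined to the eye. In brain it was called at 3.45 (SE 0.57, adjusted p = 2.88e-06) with a base mean of 7.33, by the authors' deposited table for brain. The transcriptional repressor gene ankrd33aa fell (-0.40, SE 0.10, adjusted p = 0.00943) and so did the Usher complex gene pdzd7a (-0.50, SE 0.14, adjusted p = 0.0275), while samd11, a chromatin factor of photoreceptors, rose by 0.42 (SE 0.12, adjusted p = 0.0323) per the authors' deposited table. By the authors' deposited table the calcium exchanger gene slc24a3 also fell (-0.43, SE 0.12, adjusted p = 0.0283), and the cell type behind that value was not tested. Its relatives slc24a1 of the rod group and slc24a2 of the cone group had log2 fold changes of -0.019 and -0.20 there, neither called.

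The visual cycle returns spent retinal to its light-sensitive form in the pigment epithelium and Muller glia. Of 41 listed genes of the cycle and the pigment epithelium 1 was called (2.44%, against 1.67% of all genes). It was rgra, which encodes an opsin that isomerises retinal in light, and it fell (-0.68, SE 0.13, adjusted p = 0.000181), a fold of 0.625 (95% interval 0.521 to 0.749), at a base mean of 6201 by the authors' deposited table. The gene lies on chromosome 13 and was also called in brain, at -0.66 (SE 0.15, adjusted p = 0.00248) according to the authors' deposited table for brain. Its paralog rgrb was at 0.23 (SE 0.12, adjusted p = 0.359), rpe65a at -0.056 (SE 0.10, adjusted p = 0.859), the retinal-binding gene rlbp1a at -0.081 (SE 0.086, adjusted p = 0.728) and the vitamin A receptor gene stra6 at -0.020 (SE 0.17, adjusted p = 0.978), none called per the authors' deposited table. Of 16 retinoic acid genes none was called and 12 lay below 0, with a median of -0.060. The retinoic acid-degrading gene cyp26b1 was at -0.62 (SE 0.25, adjusted p = 0.208) by the authors' deposited table.

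Transcription factors that set up the retina changed in both directions. Among 49 such genes six6b rose by 0.44 (SE 0.12, adjusted p = 0.0186), while rx1 fell (-0.38, SE 0.10, adjusted p = 0.0131) according to the authors' deposited table. Their relatives were not called, with six6a at -0.25 (SE 0.15), rx2 at -0.11 (SE 0.19), rx3 at -0.061 (SE 0.13) and pax6a at -0.022 (SE 0.081) per the authors' deposited table. Further called factors known from retina or brain were foxg1d at 0.72 (SE 0.12, adjusted p = 4.79e-06) and the orphan receptor gene esrrgb at -0.55 (SE 0.16, adjusted p = 0.0391), and foxg1d lies on chromosome 13, from the authors' deposited table. Neither six6b nor rx1 held with the empirical null (adjusted p = 0.491 and 0.385).

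Marker groups of the inner retina held few called genes. In amacrine and horizontal cells (31 genes) the called gene was chata, the acetylcholine synthase gene of starburst amacrine cells, which rose by 0.55 (SE 0.10, adjusted p = 2.28e-05), a fold of 1.46 (95% interval 1.28 to 1.67), by the authors' deposited table. The gene slc18a3a, which loads acetylcholine into vesicles and is likewise on chromosome 13, was at -0.19 (SE 0.080, adjusted p = 0.231) (the authors' deposited table). Among 35 ganglion cell and neurofilament genes nefma fell (-0.69, SE 0.20, adjusted p = 0.0343), and another neurofilament gene, zgc:65851 (neff1 in RefSeq), fell (-0.54, SE 0.16, adjusted p = 0.0412), whereas nefmb was at -0.16 (SE 0.29), neflb at -0.18 (SE 0.17) and nefla at 0.18 (SE 0.22) according to the authors' deposited table. In Muller glia the gene glula, for the enzyme that turns glutamate into glutamine, fell (-0.26, SE 0.073, adjusted p = 0.0296) with a base mean of 19225, as the authors' deposited table lists it. The gene gfap was at -0.24 (SE 0.19, adjusted p = 0.604), from the authors' deposited table. The median of the ganglion cell group was -0.093, that of the bipolar group 0.0089 and that of the Muller glia group 0.061.

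Most genes of synapses and excitability had values below 0. Of 74 synaptic genes 59 lay below 0 (median -0.089), of 69 transmitter receptor genes 44 (median -0.076) and of 142 voltage-gated channel genes 96 (median -0.085), against 9337 of all 19429. The synaptic group held 1 called rise and 1 called decrease (2.70%, against 1.67% of all genes). Called decreases numbered 1 of 74 synaptic genes (1.35%), 1 of 69 receptor genes (1.45%) and 2 of 142 channel genes (1.41%), against 0.700% of all genes. Those of channels were the potassium channel gene kcnh3 at -0.66 (SE 0.17, adjusted p = 0.0125) and the potassium channel auxiliary subunit gene kcnab2a at -0.37 (SE 0.10, adjusted p = 0.0289) per the authors' deposited table. The next genes stand outside these groups and add nothing to their counts. Of them slc6a17 is counted with the solute carriers, and syt13, ppp3cca, nptx2b and vgf were added after their values were seen. The vesicular amino acid transporter gene slc6a17 fell (-0.52, SE 0.15, adjusted p = 0.0343), the synaptotagmin gene syt13 (-0.25, SE 0.068, adjusted p = 0.0199), the calcineurin subunit gene ppp3cca (-0.36, SE 0.095, adjusted p = 0.0143), the pentraxin gene nptx2b, which clusters glutamate receptors, (-0.35, SE 0.093, adjusted p = 0.017), and the secreted peptide precursor gene vgf (-0.37, SE 0.093, adjusted p = 0.0116) by the authors' deposited table. Of the synaptic group syt2a, of the calcium sensors of vesicle release, fell (-0.47, SE 0.13, adjusted p = 0.019), and of the receptor group the NMDA receptor gene grin2da (-0.56, SE 0.16, adjusted p = 0.0412) (the authors' deposited table). The endocytic dynamin gene dnm1a rose by 0.83 (SE 0.20, adjusted p = 0.00597), as it did in brain at 1.04 (SE 0.27, adjusted p = 0.017), according to the authors' deposited tables. None of these genes held its call with the empirical null, for which the adjusted p ran upward from 0.346 for dnm1a.

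GDNF family ligands support neurons through Ret and a GFR-alpha co-receptor. The co-receptor genes gfra4a (-0.75, SE 0.16, adjusted p = 0.00116) and gfra1a (-0.46, SE 0.12, adjusted p = 0.014) fell per the authors' deposited table. Both lie on chromosome 13. The remaining members were not called, with gfra1b at -0.24 (SE 0.12), gfra2a at -0.20 (SE 0.18), gfra2b at -0.17 (SE 0.084), gfra3 at 0.0070 (SE 0.17) and ret at -0.12 (SE 0.063) by the authors' deposited table. The lysophosphatidic acid receptor gene lpar1 fell (-0.50, SE 0.15, adjusted p = 0.0462), as the authors' deposited table lists it. Another such receptor gene, lpar2a, rose by 0.68 (SE 0.18, adjusted p = 0.0143), from the authors' deposited table. The phagocytic receptor kinase gene tyro3 fell (-0.66, SE 0.17, adjusted p = 0.0137), the tachykinin receptor gene tacr2 (-0.58, SE 0.15, adjusted p = 0.0141) and the relaxin-type receptor gene rxfp3.3b (-0.51, SE 0.12, adjusted p = 0.00562) according to the authors' deposited table. Of 66 Wnt pathway genes (median -0.11) 2 were called, both lower (3.03%, against 0.700% of all genes). The secreted inhibitor gene sfrp5, on chromosome 13, fell (-0.61, SE 0.12, adjusted p = 0.000145) and rnf43, a membrane ligase that removes Wnt receptors, (-2.03, SE 0.55, adjusted p = 0.0196) with a base mean of 5.10 (the authors' deposited table). The related inhibitors sfrp1a and sfrp2 were at -0.30 (SE 0.12, adjusted p = 0.195) and -0.32 (SE 0.12, adjusted p = 0.162) per the authors' deposited table. None of the 82 listed TGF-beta and BMP pathway genes and none of the 32 listed Notch pathway genes was called. That list leaves out admp, a BMP family gene, which rose by 1.76 (SE 0.52, adjusted p = 0.0475) by the authors' deposited table.

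Of 50 genes of the anterior segment and of glaucoma 3 changed (6.0%, against 1.67% of all genes). Of these, cyp1b1, the gene knocked out in the wh5 line, and slc4a11 lie on chromosome 13, where 8.51% of listed genes were called. The first was cyp1b1 itself, which was higher in wh5 eyes at 0.54 (SE 0.14, adjusted p = 0.016), a fold of 1.46 (95% interval 1.2 to 1.77), by the authors' deposited table, and which was not called with the empirical null (adjusted p = 0.464). The level of the transcript does not check the labels, because the sources used here give neither the position nor the effect of the wh5 allele. The second was six6b, described above. The third, slc4a11, is a transporter of the corneal endothelium whose human counterpart is mutated in corneal dystrophy, and it fell (-0.52, SE 0.15, adjusted p = 0.0281) according to the authors' deposited table. The glaucoma gene myoc was at -0.36 (SE 0.17, adjusted p = 0.284), foxc1a at -0.012 (SE 0.13) and foxc1b at 0.067 (SE 0.13), none called per the authors' deposited table. The corneal stroma genes kera and lum were at -0.11 (SE 0.10) and 0.14 (SE 0.15), as the authors' deposited table lists it.

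Of 54 collagen genes 38 lay below 0 (median -0.10) and 1 was called (1.85%), col24a1, which rose by 0.54 (SE 0.16, adjusted p = 0.0458) by the authors' deposited table. Of 66 matrix enzyme and inhibitor genes 2 were called (3.03%, against 1.67% of all genes). The crosslinking lysyl oxidase gene loxl3b fell (-0.91, SE 0.20, adjusted p = 0.00116) and the metalloproteinase inhibitor gene timp4.2 rose by 1.45 (SE 0.34, adjusted p = 0.00397) according to the authors' deposited table. In brain loxl3b was also called, at -2.15 (SE 0.35, adjusted p = 1.36e-06) by the authors' deposited table for brain. Outside the lists the prolyl hydroxylase gene p3h2 (-0.53, SE 0.13, adjusted p = 0.0097) and the folding enzyme gene fkbp14 (-0.37, SE 0.10, adjusted p = 0.013) fell, from the authors' deposited table. Of the 74 genes of the laminin and glycoprotein group 3 were called (4.05%, against 1.67% of all genes). In that group lamb4 rose by 0.81 (SE 0.23, adjusted p = 0.0391), and lama3 (-1.54, SE 0.42, adjusted p = 0.0236) and fbln7 (-0.48, SE 0.14, adjusted p = 0.0391) fell per the authors' deposited table. The integrin gene itga9 fell (-0.48, SE 0.11, adjusted p = 0.00152) and parvaa, which links integrins to actin, (-0.47, SE 0.13, adjusted p = 0.0199) (the authors' deposited table). Of these genes loxl3b, fbln7 and itga9 lie on chromosome 13. The abundant matrix genes col1a1a and fn1a were at -0.23 (SE 0.24) and 0.19 (SE 0.22) by the authors' deposited table.

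Each listed group of pigment cells held 1 called gene, and the groups of vessels, blood and muscle held none. The 51 vessel and pericyte genes, 22 red cell genes and 102 muscle genes had no called member and medians of -0.060, -0.11 and -0.021. Outside that list, heg1, a receptor of endothelial junctions, fell (-0.45, SE 0.11, adjusted p = 0.00593), and si:cabz01007802.1 (apold1b in RefSeq), a relative of an endothelial stress gene, rose by 0.59 (SE 0.14, adjusted p = 0.00619) according to the authors' deposited table. The melanocyte group (31 genes, median -0.0043) had slc7a11 as its called member (3.23%, against 1.67% of all genes). The iridophore and xanthophore group (30 genes) had gmps (3.33%). Both also act in other cells and are described next.

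Solute carriers, the membrane transporters of nutrients and ions, form the largest symbol family of the table. Of 361 listed members 11 fell (3.05%, against 0.700% of all genes) and 2 rose (0.554%, against 0.973%), and 225 lay below 0 (median -0.061). The cystine importer gene slc7a11 fell (-1.02, SE 0.20, adjusted p = 0.000143), a fold of 0.491 (95% interval 0.375 to 0.644), by the authors' deposited table. It held with the empirical null computed here (adjusted p = 0.0443). Its partner subunit gene slc3a2b was at -0.12 (SE 0.10, adjusted p = 0.59) per the authors' deposited table. The nucleoside transporter gene slc28a1 fell (-1.25, SE 0.31, adjusted p = 0.0102), from the authors' deposited table. Called carriers of vitamins and trace metals were the biotin and pantothenate transporter gene slc5a6a at -0.45 (SE 0.10, adjusted p = 0.00339), the copper importer gene slc31a1 at -0.41 (SE 0.094, adjusted p = 0.00369) and the thiamine transporter gene slc19a2 at -0.45 (SE 0.13, adjusted p = 0.0495) by the authors' deposited table. Of mitochondrial carrier genes slc25a13 (-0.56, SE 0.14, adjusted p = 0.01), whose product exchanges aspartate for glutamate, and slc25a14 (-0.44, SE 0.13, adjusted p = 0.0498), of the uncoupling protein family, fell (the authors' deposited table). The sodium-calcium exchanger gene slc24a4b fell (-0.99, SE 0.26, adjusted p = 0.0143), and atp1b2b, a subunit of the sodium pump, (-0.35, SE 0.10, adjusted p = 0.0423) according to the authors' deposited table. The increases were slc25a55b at 0.96 (SE 0.26, adjusted p = 0.0181) and slc22a21, of the organic cation and carnitine transporters, at 0.80 (SE 0.22, adjusted p = 0.0287) per the authors' deposited table. Of the 13 called carriers 2, slc4a11 and slc24a3, lie on chromosome 13, and slc7a11 alone held with the empirical null.

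Genes that respond to cystine or amino acid shortage gave no further call among the group listed for that response. The group of amino acid response and tRNA synthetase genes had a median of 0.0063 over 36 members. The gene slc7a11 was its only call (2.78%, against 1.67% of all genes), and another 20 symbols of the group matched no row. By the authors' deposited table atf4a was at 0.17 (SE 0.078, adjusted p = 0.29), asns at -0.23 (SE 0.18, adjusted p = 0.591) and chac1, a glutathione-degrading enzyme gene, at 0.15 (SE 0.19, adjusted p = 0.771). The glutathione synthesis genes gclc and gclm were at -0.087 (SE 0.088) and -0.041 (SE 0.12) and the oxidative stress regulator gene nfe2l2a at -0.14 (SE 0.10) by the authors' deposited table. The glutathione and antioxidant group had 86 of 116 members above 0 and a median of 0.11, with 2 called (1.72%, against 1.67% of all genes). Its second called gene, gstz1, a transferase that acts in tyrosine breakdown, rose by 0.66 (SE 0.19, adjusted p = 0.0436), and its neighbour in gene order aldh6a1, which acts in valine breakdown, by 0.28 (SE 0.071, adjusted p = 0.0121) according to the authors' deposited table.

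**Figure D3:**
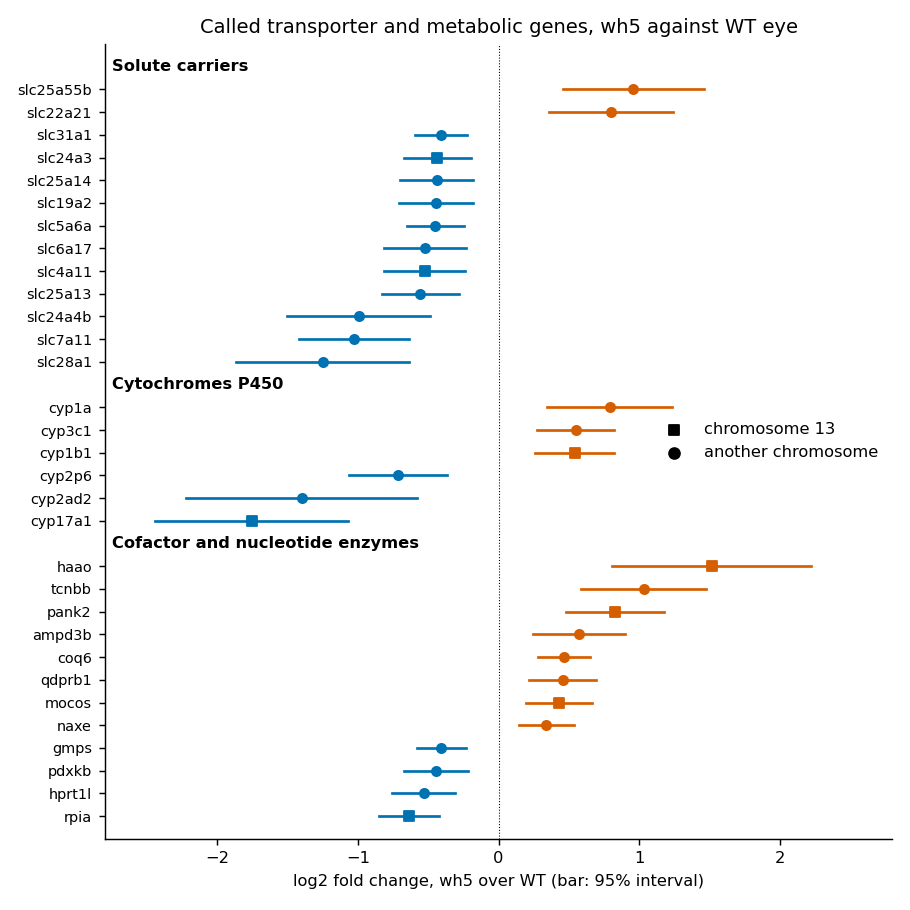
Log2 fold change of wh5 over WT (horizontal) with its 95% interval for the 13 called solute carriers, the 6 called cytochromes P450 and 12 called cofactor and nucleotide genes. The last 12 were picked by hand from the called genes and are not a full family, and tcnbb among them encodes a carrier. Squares are genes of chromosome 13 and circles genes of other chromosomes, and 11 of the 13 carriers lie below 0.

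Cytochromes P450 were called in 6 of 64 cases (9.38%, against 1.67% of all genes), 3 in each direction. The steroid hydroxylase gene cyp17a1 fell (-1.75, SE 0.35, adjusted p = 0.000227), a fold of 0.296 (95% interval 0.184 to 0.476), at a base mean of 24.1 per the authors' deposited table, and it lies on chromosome 13. It was the sole called gene of 46 steroid enzyme and receptor genes (2.17%, against 1.67% of all genes). The genes cyp2p6 (-0.71, SE 0.18, adjusted p = 0.0097), a fish relative of the mammalian enzymes that make epoxy fatty acids, and cyp2ad2 (-1.40, SE 0.42, adjusted p = 0.0495) fell, while cyp3c1 rose by 0.55 (SE 0.14, adjusted p = 0.0121) by the authors' deposited table. The remaining pair that rose was cyp1b1 and cyp1a. Of 16 Cyp1 and aryl hydrocarbon receptor genes 3 rose (18.8%, against 0.973% of all genes), and 1 of these is cyp1b1 itself, on chromosome 13. The repressor gene ahrra, a target of the receptor, rose by 0.78 (SE 0.14, adjusted p = 2.75e-05), a fold of 1.71 (95% interval 1.41 to 2.07), and cyp1a by 0.79 (SE 0.23, adjusted p = 0.0354) according to the authors' deposited table. The other members were not called, with ahr2 at -0.038 (SE 0.12), ahrrb at 0.087 (SE 0.27), tiparp at 0.17 (SE 0.10), cyp1c2 at -0.24 (SE 0.29) and cyp1d1 at -0.082 (SE 0.16) per the authors' deposited table.

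Of 37 lipid mediator genes 3 were called (8.11%, against 1.67% of all genes). The prostaglandin E2 receptor gene ptger4a rose by 0.65 (SE 0.14, adjusted p = 0.00151), whereas mgll, a lipase that releases arachidonic acid from an endocannabinoid, fell (-0.26, SE 0.070, adjusted p = 0.0162) along with cyp2p6 by the authors' deposited table. In fat storage mogat2, which makes diacylglycerol, fell (-0.43, SE 0.11, adjusted p = 0.0097), as the authors' deposited table lists it. It was the sole call of 73 fatty acid genes (1.37%, against 1.67% of all genes). No gene of 49 cholesterol genes was called, although 38 lay below 0 (median -0.10).

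Genes of vitamins, cofactors and nucleotides were called on several chromosomes. The pantothenate kinase gene pank2, which starts coenzyme A synthesis, rose by 0.83 (SE 0.18, adjusted p = 0.00117) and was called in brain as well, at 0.70 (SE 0.17, adjusted p = 0.00773), according to the authors' deposited tables, and it lies on chromosome 13. The paralogs pank1a and pank4 were at -0.19 (SE 0.10) and 0.031 (SE 0.054), from the authors' deposited table. The vitamin B12 carrier gene tcnbb rose by 1.03 (SE 0.23, adjusted p = 0.00174), and the vitamin B6 kinase gene pdxkb fell (-0.44, SE 0.12, adjusted p = 0.015) per the authors' deposited table. Increases were found for the ubiquinone synthesis gene coq6 at 0.46 (SE 0.094, adjusted p = 0.000377), the biopterin-recycling gene qdprb1 at 0.46 (SE 0.12, adjusted p = 0.0186), the molybdenum cofactor gene mocos at 0.43 (SE 0.12, adjusted p = 0.0283) and the NADH repair gene naxe at 0.34 (SE 0.10, adjusted p = 0.0391) by the authors' deposited table. The kynurenine pathway gene haao, on chromosome 13, rose by 1.51 (SE 0.36, adjusted p = 0.00597), a fold of 2.86 (95% interval 1.75 to 4.67) (the authors' deposited table). The genes kynu and ido1 of the same pathway were at 0.38 (SE 0.29, adjusted p = 0.594) and 0.77 (SE 0.50, adjusted p = 0.5) according to the authors' deposited table. Of 33 purine genes 3 were called (9.09%, against 1.67% of all genes). The salvage gene hprt1l fell (-0.53, SE 0.11, adjusted p = 0.00112) and gmps, which makes GMP, (-0.41, SE 0.088, adjusted p = 0.00133), while ampd3b, which deaminates AMP, rose by 0.57 (SE 0.17, adjusted p = 0.0386) per the authors' deposited table. The second salvage gene hprt1 was at -0.11 (SE 0.086, adjusted p = 0.59), as the authors' deposited table lists it. In the pentose phosphate pathway rpia, on chromosome 13, fell (-0.64, SE 0.11, adjusted p = 6.18e-06), and the muscle-type glycolytic gene pfkmb rose by 0.66 (SE 0.16, adjusted p = 0.00619) by the authors' deposited table.

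Mitochondrial gene groups held no large change. Of 86 nuclear genes of the respiratory complexes 81 lay above 0, with medians of 0.15 for complex 1 (39 of 39 above 0), 0.17 for complex 3 (7 of 9), 0.20 for complex 4 (18 of 19) and 0.17 for complex 5 (17 of 19), and none was called. The 12 mitochondrially encoded genes had 6 members above 0 and 6 below (median -0.0074). Mitochondrial ribosomal protein genes had 59 of 74 members above 0 (median 0.084) and tricarboxylic acid cycle genes 28 of 52 (median 0.040), with none called. Called genes of mitochondria outside these groups were the release factor gene mtrf1 at 0.79 (SE 0.16, adjusted p = 0.000228), the membrane insertase gene cox18 at 0.37 (SE 0.10, adjusted p = 0.0332), the fission gene mtfp1 at 0.60 (SE 0.18, adjusted p = 0.0423) and the transcription regulator gene mterf2 at -0.47 (SE 0.12, adjusted p = 0.00897) according to the authors' deposited table. The heat shock group (104 genes, median -0.052) had 1 call (0.962%, against 1.67% of all genes), hspb8 at -0.35 (SE 0.076, adjusted p = 0.0014), from the authors' deposited table. Of 43 endoplasmic reticulum stress genes none was called.

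Of 176 cell cycle genes 2 rose (1.14%, against 0.973% of all genes). The replicative helicase gene mcm7 was at 0.93 (SE 0.18, adjusted p = 0.000134), also called in brain at 1.06 (SE 0.24, adjusted p = 0.0043), and its neighbour on chromosome 14, the cell surface proteoglycan gene gpc2, at 1.25 (SE 0.29, adjusted p = 0.00349) per the authors' deposited tables. The other helicase subunits mcm2, mcm3, mcm5 and mcm6 were at 0.24 (SE 0.20), 0.41 (SE 0.19), 0.13 (SE 0.20) and 0.35 (SE 0.18), and pcna at 0.16 (SE 0.079), none called by the authors' deposited table. The mitotic survivin gene birc5a rose by 0.98 (SE 0.29, adjusted p = 0.0424) (the authors' deposited table). Of repair and telomere genes outside the list the base excision gene mbd4 rose by 0.41 (SE 0.11, adjusted p = 0.0165), the Fanconi ligase gene fancl by 1.39 (SE 0.40, adjusted p = 0.0344) and the telomere-binding gene terfa by 0.48 (SE 0.13, adjusted p = 0.0141) according to the authors' deposited table. Of 43 apoptosis genes 2 were called (4.65%, against 1.67% of all genes). The executioner gene casp3b rose by 0.80 (SE 0.21, adjusted p = 0.0144), and the protective gene bcl2l1 fell (-0.22, SE 0.058, adjusted p = 0.015) per the authors' deposited table.

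Of 49 circadian clock and melatonin genes 3 changed (6.12%, against 1.67% of all genes). The eye holds its own clock, and melatonin is made by photoreceptors at night. The melatonin synthesis gene aanat1 rose by 0.46 (SE 0.12, adjusted p = 0.0171) and the positive clock factor gene arntl1a (bmal1a in RefSeq) by 0.32 (SE 0.094, adjusted p = 0.0386), while bhlhe41, a repressor of the clock, fell (-0.20, SE 0.049, adjusted p = 0.00735) by the authors' deposited table. Other clock genes were not called, with arntl1b at 0.041 (SE 0.11), per2 at -0.18 (SE 0.079), nr1d1 at -0.086 (SE 0.066) and the second melatonin gene aanat2 at 0.31 (SE 0.16) according to the authors' deposited table. The time of day at which eyes were taken is not given in the labels.

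The position of called genes was uneven. Chromosome 13, which holds cyp1b1, had 61 called of 717 listed genes (8.51%), 28 higher and 33 lower, against 256 of 18003 (1.42%) on the other 24 chromosomes, where shares ran from 0.549% to 2.45%. Chromosomes and gene order were taken from a RefSeq table of another assembly than the authors' build, which placed 96.4% of genes. Of the 38 genes called with the empirical null 22 lie on chromosome 13. Of the 10, 25, 50 and 100 listed genes on each side of cyp1b1, 2 of 20, 5 of 50, 11 of 100 and 20 of 200 were called, shares of 10% to 11%. Called genes near cyp1b1 included morn4, 8 genes away, at -0.52 (SE 0.13, adjusted p = 0.0101), sfrp5, 19 away, fam160b1 (fhip2a in RefSeq), 20 away, at -0.51 (SE 0.11, adjusted p = 0.000689), and the zinc finger gene zfand3, 23 away, at -0.33 (SE 0.057, adjusted p = 9.75e-06) per the authors' deposited table. The strongest decrease of the eye by adjusted p was si:dkeyp-2e4.3, 28 genes away, at -3.59 (SE 0.42, adjusted p = 1.85e-13), a fold of 0.0828 (95% interval 0.0468 to 0.146), as the authors' deposited table lists it. Beside cyp1b1, nanp, its nearest listed gene on 1 side, was at 0.12 (SE 0.14, adjusted p = 0.752) and the next gene, polr1b, at -0.28 (SE 0.094, adjusted p = 0.0992) by the authors' deposited table, neither called. Among the genes named for their roles, il22ra2, ftr80, eys, pdzd7a, chata, rgra, tacr2, mocos, fancl, rnaset2, tial1, rhoua, golga4 and fndc5a also lie on chromosome 13, besides those so marked. An effect of the cyp1b1 lesion and effects of other alleles inherited with it cannot be told apart.

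**Figure D4:**
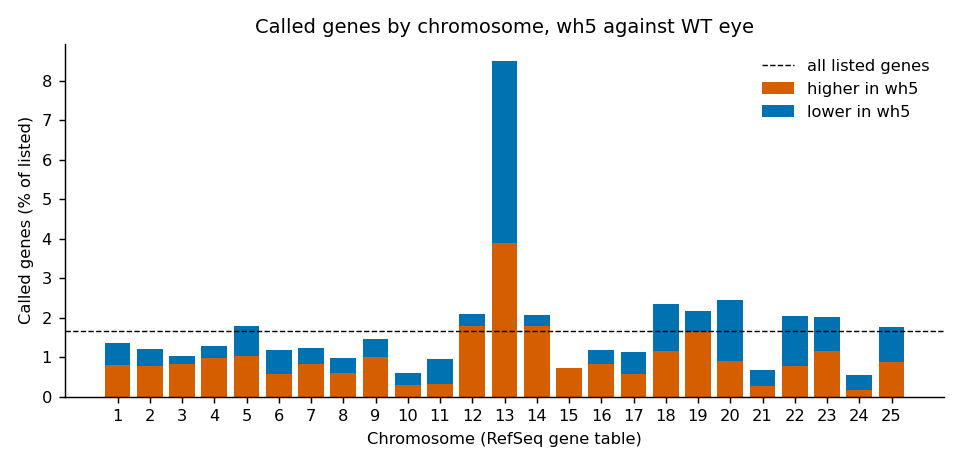
Called genes as a percentage of listed genes on each chromosome, stacked by direction (orange higher, blue lower in wh5), with the share over all genes (1.67%) as a dashed line. Chromosome 13 stands at 8.51%, above the other chromosomes, which lie between 0.549% and 2.45%.

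Elsewhere in the genome, called genes that are direct neighbours mostly moved the same way. There were 12 such runs with 27 genes outside chromosome 13, and in 11 of them all members shared a direction. Besides the irg1l run these included stat4 at 1.1 (SE 0.27, adjusted p = 0.00846) beside stat1b at 1.22 (SE 0.27, adjusted p = 0.00152), transducers of cytokine signals, and the embryonic signalling gene admp at 1.76 (SE 0.52, adjusted p = 0.0475) beside pnhd at 1.74 (SE 0.43, adjusted p = 0.0085) according to the authors' deposited table. Further runs were plekhs1 at 3.27 (SE 0.91) beside zgc:153920 at 1.13 (SE 0.30), the arginine methyltransferase gene prmt2 at 0.68 (SE 0.20) beside the glucuronosyltransferase gene ugt1a7 at 0.85 (SE 0.23), and a run of 3 on chromosome 12 with zgc:153932 at 2.37 (SE 0.36), LOC100005685 at 1.84 (SE 0.50) and zmp:0000001031 at 2.49 (SE 0.39) per the authors' deposited table. The decrease that paired neighbours was sec63, of the protein translocation channel, at -0.27 (SE 0.066) beside scml4 at -0.49 (SE 0.11), from the authors' deposited table. On chromosome 13 there were 7 runs with 19 genes, of which 4 ran in one direction. The largest held 6 genes, of which 2 rose and 4, among them fbln7 and golga4, fell. Where transcripts of neighbours overlap, their reads may be shared, and the sources used here do not say whether counting used strand.

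Beyond the families already described, single genes stood at the ends of the distribution. The largest decrease was that of si:ch73-106g13.1 (coro2ab in RefSeq), of the actin-binding coronins, at -5.08 (SE 1.01, adjusted p = 0.000211), a fold of 0.0296 (95% interval 0.00755 to 0.116), which was also called in brain at -2.58 (SE 0.50, adjusted p = 0.000145) by the authors' deposited tables. By adjusted p the leading increase was tsnax, a partner of the RNA-binding protein translin, at 0.87 (SE 0.11, adjusted p = 1.01e-10), on chromosome 13 (the authors' deposited table). Methionine aminopeptidase genes, whose products trim new proteins, split, with metap1 on chromosome 13 at 0.52 (SE 0.088, adjusted p = 3.64e-06) and metap2b at -0.20 (SE 0.057, adjusted p = 0.0424) according to the authors' deposited table. Arginine methyltransferase genes split too, since prmt1 fell (-0.27, SE 0.062, adjusted p = 0.00393) while prmt2 rose, as the authors' deposited table lists it. The DNA-binding gene thap1 on chromosome 5 rose by 0.66 (SE 0.11, adjusted p = 1.5e-06) and held with the empirical null (adjusted p = 0.00615), as did the phosphatase-regulator gene ppp1r18 on chromosome 19, which fell (-0.51, SE 0.10, adjusted p = 0.000101) and had an adjusted p of 0.0367 there, in the authors' deposited table.

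Further called genes were chosen for a known role after their values were seen, and apart from kif3b, of the cilia list, they stand in no list. The kinesin motor gene kif3b, which carries cargo into cilia, fell (-0.33, SE 0.10, adjusted p = 0.0486), as did the recycling endosome gene rab11ba (-0.26, SE 0.071, adjusted p = 0.0275), the Golgi gene golga4 (-0.35, SE 0.092, adjusted p = 0.014) and the Golgi adaptor gene acbd3 (-0.66, SE 0.16, adjusted p = 0.00886) per the authors' deposited table. The actin regulator genes pfn2l (-0.27, SE 0.081, adjusted p = 0.0462), rhoua (-0.33, SE 0.10, adjusted p = 0.0423) and asap1b (-0.35, SE 0.10, adjusted p = 0.032) and the cell polarity gene llgl1 (-0.35, SE 0.10, adjusted p = 0.0436) fell too, from the authors' deposited table. The vesicle tethering gene trappc13 rose by 0.30 (SE 0.078, adjusted p = 0.0144) by the authors' deposited table. Of signal transducers the casein kinase gene csnk1a1 (-0.30, SE 0.083, adjusted p = 0.022), the inhibitory G protein gene gnai2b (-0.32, SE 0.084, adjusted p = 0.0152) and the diacylglycerol kinase gene dgkh (-0.46, SE 0.13, adjusted p = 0.0307) were lower (the authors' deposited table). The MAP kinase kinase gene map2k1 at 0.33 (SE 0.077, adjusted p = 0.00434) was higher, in the authors' deposited table. Among secreted and surface proteins that act on neurons nrn1la (-0.23, SE 0.068, adjusted p = 0.0498) and fndc5a (-0.76, SE 0.19, adjusted p = 0.0127) were lower, as the authors' deposited table lists it. The axon guidance gene sema6d at 0.57 (SE 0.14, adjusted p = 0.0109) and the neural proteoglycan gene cspg5b at 0.46 (SE 0.12, adjusted p = 0.012) were higher in the authors' deposited table.

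Single called genes of chromatin and transcription were chosen in the same way. The RNA polymerase III factor gene brf1a, on chromosome 13, fell (-0.84, SE 0.15, adjusted p = 1.91e-05), and the chromatin genes baz1b (-0.33, SE 0.10, adjusted p = 0.0373) and rybpb (-0.24, SE 0.063, adjusted p = 0.0145) and the elongation factor gene ell (-0.31, SE 0.080, adjusted p = 0.0127) were lower in the authors' deposited table. The coactivator subunit gene supt3h rose by 0.42 (SE 0.091, adjusted p = 0.00155), and the transcription factor genes foxp1a and tfap2e rose by 0.46 (SE 0.12, adjusted p = 0.012) and 0.40 (SE 0.11, adjusted p = 0.016) according to the authors' deposited table. The RNA-binding genes hnrnpr and tial1 rose by 0.18 (SE 0.048, adjusted p = 0.0171) and 0.21 (SE 0.062, adjusted p = 0.045), from the authors' deposited table. The gene utp20, which acts in ribosome assembly, fell (-0.28, SE 0.084, adjusted p = 0.0496) by the authors' deposited table. Of 129 splicing and RNA-binding genes hnrnpr was the sole call in its group (0.775%), and of 80 nucleolar genes utp20 was (1.25%), against 1.67% of all genes. Called single genes of hydrolases were the metalloprotease gene mep1a.1 at 0.91 (SE 0.26, adjusted p = 0.0334), the carboxypeptidase gene cpa4 at 1.98 (SE 0.59, adjusted p = 0.0458), the fucosidase gene fuca1.1 at 0.64 (SE 0.18, adjusted p = 0.0364) and the ribonuclease gene rnaset2 at 0.59 (SE 0.12, adjusted p = 0.00058) per the authors' deposited table.

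The effect in eye was set against the effect in brain for genes listed in both organs. Of the 325 genes called in eye 286 were also listed for brain, where 142 of 19300 genes (0.736%) were called. Both organs shared 25 calls, 7.69% of those in eye and 17.6% of those in brain, all in the same direction, and 18 of them lie on chromosome 13. The difference between the effect in eye and the effect in brain passed for 15 of 18275 genes (0.0821%, difference over its SE, two-sided normal p with Benjamini-Hochberg adjustment), and 5 of these were called in eye. The muscle and bone peptide gene ostn had an effect of 0.90 (SE 0.22) in eye and -0.81 (SE 0.35, adjusted p = 0.43) in brain, a difference, computed from the deposited effects, of 1.71 (SE 0.41) with an adjusted p of 0.0365. From the same deposited effects the phosphatase-like gene pald1b, on chromosome 13, was at -1.49 (SE 0.22) in eye and -0.32 (SE 0.11, adjusted p = 0.213) in brain (adjusted p of the difference = 0.0113). The Polycomb gene phc2b was at 0.38 (SE 0.11) in eye and -0.17 (SE 0.063, adjusted p = 0.237) in brain, with 0.0232 for the difference, gfra4a at -0.75 in eye and 0.044 (SE 0.086, adjusted p = 0.947) in brain, with 0.0254, and si:ch211-153b23.5 of the irg1l run at 2.36 in eye and -0.48 (SE 0.35, adjusted p = 0.762) in brain, with 0.0135, from the authors' deposited tables. With the empirical null of the difference none of these 5 passed. The gene irg1l itself had a deposited effect of 1.83 (SE 0.90, adjusted p = 0.549) in brain, and its difference did not pass (adjusted p = 0.0875). Another 39 genes called in eye, 37 of them higher, are not listed for brain in the authors' deposited table and could not be compared. The labels do not say whether eye and brain samples came from the same fish, and the test takes them as independent.

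**Figure D5:**
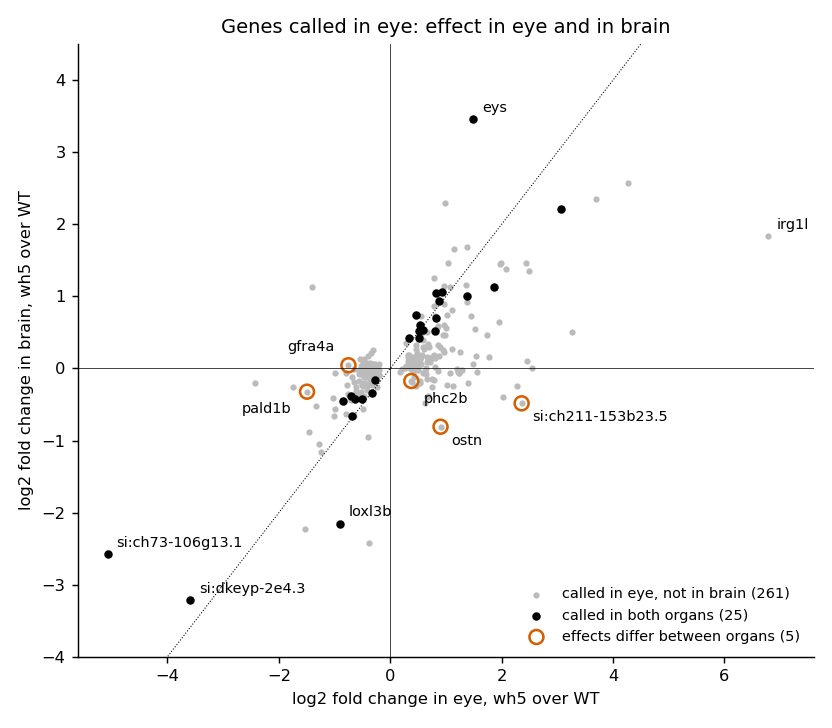
Log2 fold change of wh5 over WT in eye (horizontal) and in brain (vertical) for the 286 genes called in eye and listed for both organs. Black points are the 25 genes called in both organs, orange rings the 5 genes whose effects differ between organs, and the dotted line marks equal effects.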

How the data were processed

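Polyadenylated RNA was sequenced from 10 wh5 and 10 WT eye samples and from as many brain samples, and the authors deposited 1 comparison table for each organ. Tools named in the submitters' processing notes are DESeq2 version 1.32.0, STAR and fastp, with the build GRCz11. The deposited log2 fold changes and SEs are the authors' estimates, with base 2 taken from DESeq2's convention and the direction, wh5 over WT, from the name of the table. The deposited base mean is a signal that averages normalised counts over the samples compared. The deposited test statistic is a score, and it equalled the log2 fold change over its SE within 0.000306. The authors' p-values and adjusted p-values come with it, and a Benjamini-Hochberg adjustment recomputed from the deposited p-values differed by a relative 0.00451 at most. The tables hold no values of single samples, so no count model was fitted, the depth per sample is unknown, and the authors' model formula, including any term for sex, is not stated. Nothing in the labels says that samples came from separate fish, so the p-values may measure a partly technical spread.

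Tables were analysed in Python 3.11.15 using scipy 1.17.1, matplotlib 3.10.9, numpy 2.4.6 and pandas 2.3.3. Folds and their 95% intervals were computed from the deposited estimate and SE. The calculations were tested on simulated data. The empirical null centred the statistic on its median and divided it by its robust SD. Each of 79 gene lists was described by its calls and its median, with no test of the list, and 234 list symbols matched no row. Chromosome, gene order and current symbols came from a RefSeq table of the assembly GRCz12tu, and no coordinates of it are given. Names followed a rule: cyp1b1, the largest rises and falls (25 each, base mean of at least 50), the 15 smallest adjusted p in each direction, up to 6 called members of a list or the 3 most abundant where none was called, families with 3 or more calls, the 6 called genes nearest to cyp1b1 and markers of the eye. Other called genes with a known role and uncalled relatives were added after their values were seen. The gene lists were chosen with earlier results of these data known. Promoter motifs were not analysed here, and some genes that the rule names are not reported here. No column of another sample was found (0 columns).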

Additional observations from a re-analysis of the deposited data

Results flagged for a closer look

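The effects of wh5 in eye and in brain differed for 15 genes by the test of the difference (adjusted p below 0.05), of which 11 had a higher effect in eye and 4 a lower one. From the authors' deposited tables, egr4, an immediate early transcription factor, was at 0.46 in eye and -0.80 (SE 0.15, adjusted p = 9.34e-05) in brain (adjusted p of the difference = 0.00121), and it was the sole gene that passed with an empirical null of the difference (adjusted p = 0.0387). The genes called in eye gave adjusted p of the difference of 0.0113 for pald1b, 0.0135 for si:ch211-153b23.5, 0.0232 for phc2b, 0.0254 for gfra4a and 0.0365 for ostn. The others were called in brain and not in eye, and their adjusted p of the difference was 0.00432 for mst1, 0.0113 for wdr27, 0.0232 for krit1, 0.0237 for rnf41l, 0.0237 for cplane2, 0.028 for cpxm1a, 0.0299 for si:dkey-191g9.7, 0.0299 for nanp and 0.0404 for si:cabz01076231.1. Of the 15 genes 6 lie on chromosome 13.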

How the results depend on the processing

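Of the 325 genes called in eye (189 higher, 136 lower), 122 (76 higher, 46 lower) passed an adjusted p of 0.01, 95 (80 and 15) also changed at least 2-fold, 82 (51 and 31) passed a Benjamini-Yekutieli adjustment and 38 (24 and 14) passed with the empirical null. Without chromosome 13 there were 234 calls, 148 higher and 86 lower. A base mean minimum of 50 gave 277 calls, and there were 325 after centring on the median. No called gene changed direction under these settings. The 51 lists with a called member became 26 at 0.01, 19 with the fold minimum, 21 with the Benjamini-Yekutieli adjustment and 11 with the empirical null. The difference between organs passed for 1 gene with the empirical null, 9 at a base mean of at least 50 and 2 at 0.01, in place of 15. The cause of these shifts was not tested, beyond the stricter limits themselves. No paired analysis was possible because the tables hold no values of single samples, and replicates could not be left out in turn for the same reason. Limits: at the median SE the 95% interval spans 0.28 on the log2 scale to each side, and depth is unknown.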
